A study of Mus musculus with 10 samples.

Results

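Astrocytes clear glutamate and potassium released by active neurons and regulate brain water, and 10 genes that carry out or mark these tasks were followed here: Slc1a2, Slc1a3, Glul, Aqp4, Kcnj10, Gja1, Gjb6, Aldh1l1, Aldoc and S100b. They were chosen by name, as all probe sets of the array whose only annotated gene is a member, which gave 30 probe sets out of 45037. The values come from fresh-frozen hippocampi, taken whole, of 10 female mice of the SJL/J strain, adult and 8 to 10 weeks old when obtained, each measured on its own Affymetrix array. All mice had an axonal lesion and were taken 2 days later. In the AxL group 5 mice had the lesion alone, and in the TPlp+AxL group 5 mice had also been given T cells specific for proteolipid protein, a myelin protein, by adoptive transfer before the lesion. Unlesioned tissue was not analysed here, so the effect of the lesion itself on these genes was not measured. The comparison addresses which hippocampal transcripts differ after the lesion when such T cells are present.

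Glutamate that leaves the synapse is carried into astrocytes by sodium-coupled transporters and converted there to glutamine, which returns to neurons. Potassium enters through inwardly rectifying channels and spreads through gap junctions between astrocytes, and water moves through a channel concentrated at the endfeet on blood vessels. Loss of several of these proteins is known from injured or inflamed tissue, where astrocytes become reactive and raise filament proteins such as Gfap and Vim.

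None of the 30 probe sets rose or fell after Benjamini-Hochberg adjustment over all 45037 in limma, where 0.835% of all probe sets passed an adjusted p of 0.05 (0.646% higher and 0.189% lower). That split, 291 higher and 85 lower, became 269 and 210 after array medians were subtracted, and 348 and 43 after cyclic loess normalization. At an unadjusted p under 0.05 there were 6 of the 30, with 5 lower and 1 higher, against 14.3% of all probe sets (7.79% lower and 6.54% higher). Adjusted p ran from 0.101 to 0.997 and log2 changes, TPlp+AxL minus AxL, from -0.25 to 0.20. With TPlp+AxL 1 left out, 2 member probe sets passed as lower in limma, against 0.722% of all probe sets in either direction. They were the brightest of Gja1 (-0.20, adjusted p = 0.0484) and of S100b (-0.20, adjusted p = 0.0450). In that setting 76 of the 45037 passed as lower, and probe sets above a level of about 12 had a median change of -0.18. With array weights the brightest of Gja1 passed as lower (-0.18, adjusted p = 0.0443), against 1.67% of all probe sets in either direction. There 288 passed as lower, and the median change above that level was -0.16. A lower member value in bulk tissue would not tell fewer astrocytes from less RNA per astrocyte.

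Taking for each gene its brightest probe set, that with the highest mean over the 10 arrays, 8 members had negative and 2 positive changes, with a median of -0.14. The median over all probe sets was -0.0034, and over the brightest probe sets of all 18193 genes it was -0.03. The 95% intervals of the 10 members lay between -0.53 (Slc1a2) and 0.29 (Gjb6), or between -30.5% and 22.3% on the linear scale. These intervals hold for each brightest probe set singly and do not show that the groups are equal. Over all 30 member probe sets the intervals reached from -0.60 (a dimmer Glul probe set) to 0.46 (a dimmer Slc1a3 probe set).

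**Figure D1:**
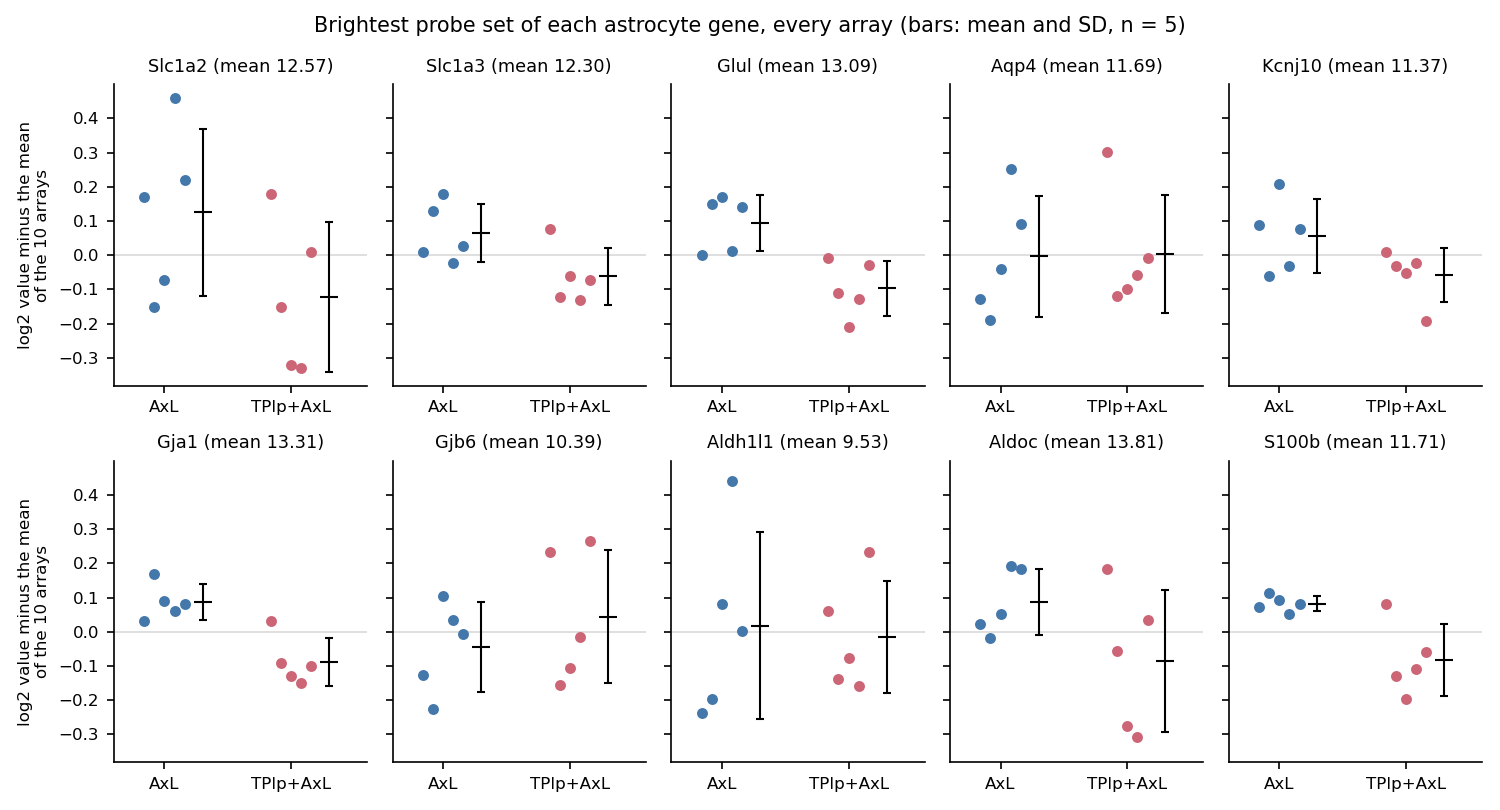
Log2 values of the brightest probe set of each member on every array, as the difference from that gene's mean over the 10 arrays (in each panel's title). Points run from replicate 1 on the left to replicate 5 on the right within AxL (blue) and TPlp+AxL (red), and bars are the group mean and SD (n = 5). Glul is the panel in which the groups do not overlap, and TPlp+AxL 1 is the highest or the next highest array of its group in every panel.

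Signal level moved with the change. Over the array, brighter probe sets had more negative changes: the median was 0.01 for the 32977 other probe sets under a log2 level of 9, -0.08 for 9051 between 9 and 11, and -0.12 for 2618 between 11 and 13. It was -0.15 for the 361 at 13 or more, of which 99.2% were negative. Each member probe set was therefore set beside the 200 non-member probe sets nearest to it in mean level. Of the 10 brightest member probe sets, 5 lay above and 5 below the median of these neighbours, with differences from -0.12 (Slc1a2) to 0.18 (Gjb6) and a median difference of -0.0047. Of all 30, 18 lay above and 12 below their neighbours' median, and 26 lay within the middle 90% of their neighbours. After quantile normalization was repeated, the median change of the 10 genes was -0.0015 in place of -0.14, and after cyclic loess normalization it was -0.02, while the median differences from the neighbours were -0.00199 and -0.0042. The deposited arrays differed in distribution between the groups. Array medians ran from 7.8754 to 7.8997 in AxL and from 7.9026 to 7.9198 in TPlp+AxL. The 99th percentiles ran from 12.88 to 13.04 in AxL and from 12.73 to 12.95 in TPlp+AxL. Their part in the level trend was not tested.

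**Figure D2:**
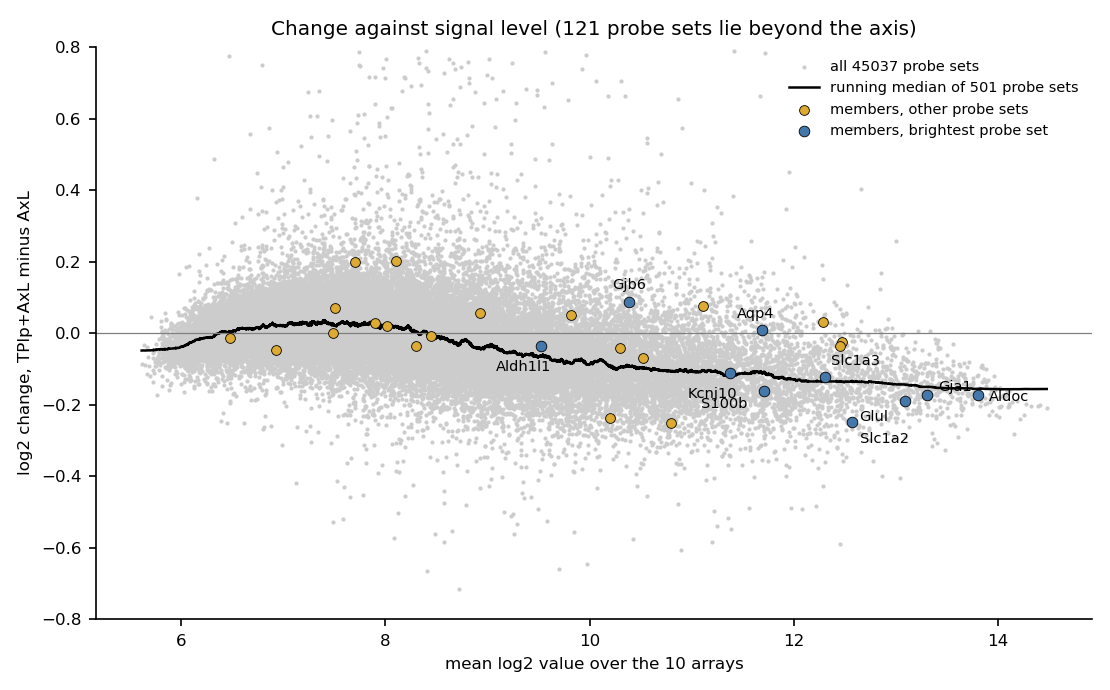
Log2 change (TPlp+AxL minus AxL) against mean log2 value for all 45037 probe sets (grey), with a running median (line) and the members in blue (brightest probe set of a gene) and yellow (others); 121 probe sets lie beyond the axis. The line lies just above 0 at low levels and falls to about the changes of Gja1 and Aldoc at the bright end, and Gjb6 and Aqp4 lie above it.

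Slc1a2 encodes the transporter GLT-1, which takes up most glutamate in the forebrain, and Slc1a3 encodes GLAST, the related transporter that is also strong in radial glia and cerebellum. The brightest Slc1a2 probe set read 12.74, 12.42, 12.50, 13.03 and 12.79 in AxL 1 to 5 and 12.75, 12.42, 12.25, 12.24 and 12.58 in TPlp+AxL 1 to 5. The groups overlapped, with AxL 4 the highest array and TPlp+AxL 3 and TPlp+AxL 4 the lowest. The means were 12.70 ± 0.24 and 12.45 ± 0.22 (SD, n = 5), and the difference was -0.25 (SE 0.13, 95% interval -0.53 to 0.03), with an adjusted p of 0.393. Only 18 of its 200 neighbours had a lower change. The neighbours' median was -0.13. The change was -0.16 without AxL 4 and -0.32 without TPlp+AxL 1.

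The other 4 Slc1a2 probe sets had changes of 0.05, -0.01, 0.20 and 0.0006 in order of brightness, and the one with 0.20 (a dim probe set with a mean level of 7.70) was the only member probe set with all 5 TPlp+AxL arrays above all 5 AxL arrays. It read 7.70, 7.71, 7.59, 7.44 and 7.58 in AxL 1 to 5 and 7.77, 7.84, 7.77, 7.88 and 7.75 in TPlp+AxL 1 to 5 (change 0.20, SE 0.05, adjusted p = 0.135). Its deviations within the groups ran against those of the brightest probe set over the 10 arrays (r = -0.66), while those of the next 2 in brightness ran with it (r = 0.72 and 0.69). Separation of the groups in this sense was found in 3.59% of all probe sets, 1.94% with TPlp+AxL higher and 1.64% with TPlp+AxL lower.

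The brightest Slc1a3 probe set varied less between mice than that of Slc1a2 (SD 0.08 in each group). It read 12.31, 12.43, 12.48, 12.28 and 12.33 in AxL 1 to 5 and 12.38, 12.18, 12.24, 12.17 and 12.23 in TPlp+AxL 1 to 5. All TPlp+AxL arrays except TPlp+AxL 1 lay below the AxL arrays. The change was -0.12 (SE 0.05, 95% interval -0.24 to -0.01, adjusted p = 0.310), close to the median of -0.14 at this level, and its sign turned after quantile normalization (0.02). The 5 dimmer Slc1a3 probe sets had changes of 0.07, -0.04, 0.20, 0.02 and -0.01, and the first 3 of them had SDs of 0.21, 0.32 and 0.25 in AxL. The largest of these (95% interval -0.05 to 0.46, adjusted p = 0.443) exceeded 196 of its 200 neighbours, and its groups overlapped.

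Glul encodes glutamine synthetase, the enzyme that turns the captured glutamate into glutamine. Its brightest probe set read 13.09, 13.24, 13.26, 13.10 and 13.23 in AxL 1 to 5 and 13.08, 12.98, 12.88, 12.96 and 13.06 in TPlp+AxL 1 to 5. The groups did not overlap, but the highest TPlp+AxL array and the lowest AxL array were next to each other. The change was -0.19 (SE 0.05, 95% interval -0.30 to -0.08, adjusted p = 0.140), beside a median of -0.14 for its neighbours, 46 of which had a lower change. The dimmer probe set gave -0.24 with a wider spread (SE 0.17, adjusted p = 0.531) and overlapping groups.

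The sequences before the start sites of the 3 glutamate-handling genes are shown so that elements bound by cytokine-activated STAT and interferon regulatory factors can be seen in them. They are the 250 bases upstream of the RefSeq start on the strand of the gene (GRCm38.p6): chr2:102706188-102706437 on the plus strand for Slc1a2, chr15:8710808-8711057 on the minus strand for Slc1a3 and chr1:153899679-153899928 on the plus strand for Glul. Both strands were searched, and capitals mark matches to the STAT element TTCNNNGAA or to the interferon-stimulated response element (GAAA, any 2 bases, GAAA).
Slc1a2: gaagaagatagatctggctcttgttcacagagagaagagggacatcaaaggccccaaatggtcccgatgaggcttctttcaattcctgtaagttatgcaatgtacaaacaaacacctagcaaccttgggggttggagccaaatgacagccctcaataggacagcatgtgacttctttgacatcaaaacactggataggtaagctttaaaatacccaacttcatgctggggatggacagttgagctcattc
Slc1a3: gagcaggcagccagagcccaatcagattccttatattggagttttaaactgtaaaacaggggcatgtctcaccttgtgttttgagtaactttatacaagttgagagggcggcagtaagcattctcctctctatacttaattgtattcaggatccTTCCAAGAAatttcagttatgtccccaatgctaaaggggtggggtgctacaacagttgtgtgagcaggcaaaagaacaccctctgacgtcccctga
Glul: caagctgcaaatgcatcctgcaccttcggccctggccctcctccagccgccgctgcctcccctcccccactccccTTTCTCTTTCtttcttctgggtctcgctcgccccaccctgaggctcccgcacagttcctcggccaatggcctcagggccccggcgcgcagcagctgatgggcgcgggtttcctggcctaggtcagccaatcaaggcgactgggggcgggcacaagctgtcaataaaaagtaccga
The Slc1a2 window held no match to either motif. The Slc1a3 window held 1 STAT match, TTCCAAGAA, whose first base lies 96 bases before the start. The Glul window held 1 response element match, TTTCTCTTTC, on the opposite strand, starting 175 bases before the start. RefSeq windows were found for 9 of the 10 members, 10 windows in all since Aldoc has 2. A STAT match was present in 2 of the 10 (Slc1a3 and 1 Aldoc window) and in 7.02% of all 32851 windows, and a response element match in 1 of the 10 (Glul) and in 2.98% of all. The palindrome of nuclear factor I (TTGGC, any 5 bases, GCCAA) was in 0 of the 10 and in 0.0365% of all. A match describes letters and does not show that a factor binds.

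Aqp4, the water channel of astrocyte endfeet, had 3 probe sets with changes of 0.01, 0.06 and 0.03. The brightest read 11.56, 11.50, 11.65, 11.94 and 11.78 in AxL 1 to 5 and 11.99, 11.57, 11.59, 11.63 and 11.68 in TPlp+AxL 1 to 5. TPlp+AxL 1 was the highest array, AxL 4 followed, and the groups overlapped throughout. The change was 0.01 (SE 0.10, 95% interval -0.20 to 0.22, adjusted p = 0.978), and it was -0.07 without TPlp+AxL 1. Kcnj10 encodes Kir4.1, the inward rectifier that buffers potassium, and has 1 probe set. It read 11.46, 11.31, 11.58, 11.34 and 11.45 in AxL 1 to 5 and 11.38, 11.34, 11.32, 11.35 and 11.18 in TPlp+AxL 1 to 5, with overlapping groups. Its change of -0.11 (SE 0.06, 95% interval -0.24 to 0.01, adjusted p = 0.389) was near the median of its neighbours (-0.12), and it was -0.07 without AxL 3.

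The gap junction genes Gja1 and Gjb6 encode connexin 43 and connexin 30, the channels that couple astrocytes. The brightest of 6 Gja1 probe sets read 13.34, 13.48, 13.40, 13.37 and 13.39 in AxL 1 to 5 and 13.34, 13.22, 13.18, 13.16 and 13.21 in TPlp+AxL 1 to 5. TPlp+AxL 1 reached the lowest AxL array and the other 4 TPlp+AxL arrays lay below it. The change was -0.17 (SE 0.04, 95% interval -0.27 to -0.08), and its adjusted p of 0.101 was the lowest of all members. The median of its 200 neighbours was -0.15, and 58 of them had a lower change. The 3 Gja1 probe sets at mean levels of 12.29 to 12.47 had changes of 0.03, -0.04 and -0.03 where their neighbours had medians of -0.14 to -0.13, and they lay above 193, 172 and 175 of their 200 neighbours. After quantile normalization the -0.04 and -0.03 became 0.10 and 0.11. The remaining 2, at levels of 8.30 and 6.93, had -0.04 and -0.05. The brightest and those with -0.04 and -0.03 have identifiers with a shared-sequence ending (_x_at), and those with 0.03 and -0.05 do not.

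Gjb6 has 1 probe set, which read 10.26, 10.16, 10.49, 10.42 and 10.38 in AxL 1 to 5 and 10.62, 10.23, 10.28, 10.37 and 10.65 in TPlp+AxL 1 to 5. TPlp+AxL 1 and TPlp+AxL 5 lay above every AxL array and the other 3 among them. The change was 0.09 (SE 0.09, 95% interval -0.11 to 0.29, adjusted p = 0.677), the largest positive change among the brightest probe sets, and it exceeded 190 of its 200 neighbours, whose median was -0.09. It was 0.03 without TPlp+AxL 5 and 0.14 without TPlp+AxL 2.

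Aldh1l1, an enzyme of folate metabolism that serves as a general astrocyte marker, had changes of -0.03 and 0.07 in its 2 probe sets. The brighter read 9.29, 9.33, 9.61, 9.97 and 9.53 in AxL 1 to 5 and 9.59, 9.39, 9.45, 9.37 and 9.76 in TPlp+AxL 1 to 5, with the AxL arrays spread around the others (change -0.03, SE 0.12, 95% interval -0.30 to 0.23, adjusted p = 0.914). Without AxL 4 it was 0.07 and without AxL 1 it was -0.10. Aldoc, the brain isoform of the glycolytic enzyme aldolase, had the brightest probe set of the members. It read 13.83, 13.79, 13.86, 14.00 and 13.99 in AxL 1 to 5 and 13.99, 13.75, 13.53, 13.50 and 13.84 in TPlp+AxL 1 to 5. TPlp+AxL 3 and TPlp+AxL 4 were low while TPlp+AxL 1 stood with the highest AxL arrays, so the groups overlapped. Its change of -0.17 (SE 0.09, 95% interval -0.37 to 0.02, adjusted p = 0.403) compares with -0.16 for its neighbours, and the dimmer Aldoc probe set had -0.07.

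S100b, a calcium-binding protein of astrocytes that oligodendrocytes also express, had negative changes in both of its probe sets. The brighter read 11.78, 11.82, 11.80, 11.76 and 11.79 in AxL 1 to 5 and 11.79, 11.58, 11.51, 11.60 and 11.65 in TPlp+AxL 1 to 5. The AxL arrays were tightly grouped (SD 0.02), TPlp+AxL 1 lay among them and the other 4 TPlp+AxL arrays lay below. The change was -0.16 (SE 0.05, 95% interval -0.27 to -0.06, adjusted p = 0.169), beside a median of -0.11 for its 200 neighbours, 68 of which had a lower change. The dimmer probe set read 10.80, 11.04, 11.09, 10.88 and 10.80 in AxL 1 to 5 and 10.79, 10.55, 10.49, 10.67 and 10.85 in TPlp+AxL 1 to 5, with a difference of -0.25 (SE 0.08, 95% interval -0.43 to -0.07) and an adjusted p of 0.210. Only 12 of its 200 neighbours had a lower change. Oligodendrocyte genes had negative changes beside it: all 9 measured of a list of 10 were negative with a median of -0.21. In limma 0 passed (6 at an unadjusted p under 0.05, against 14.3% of all probe sets). Their part in the S100b values was not tested.

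**Figure D3:**
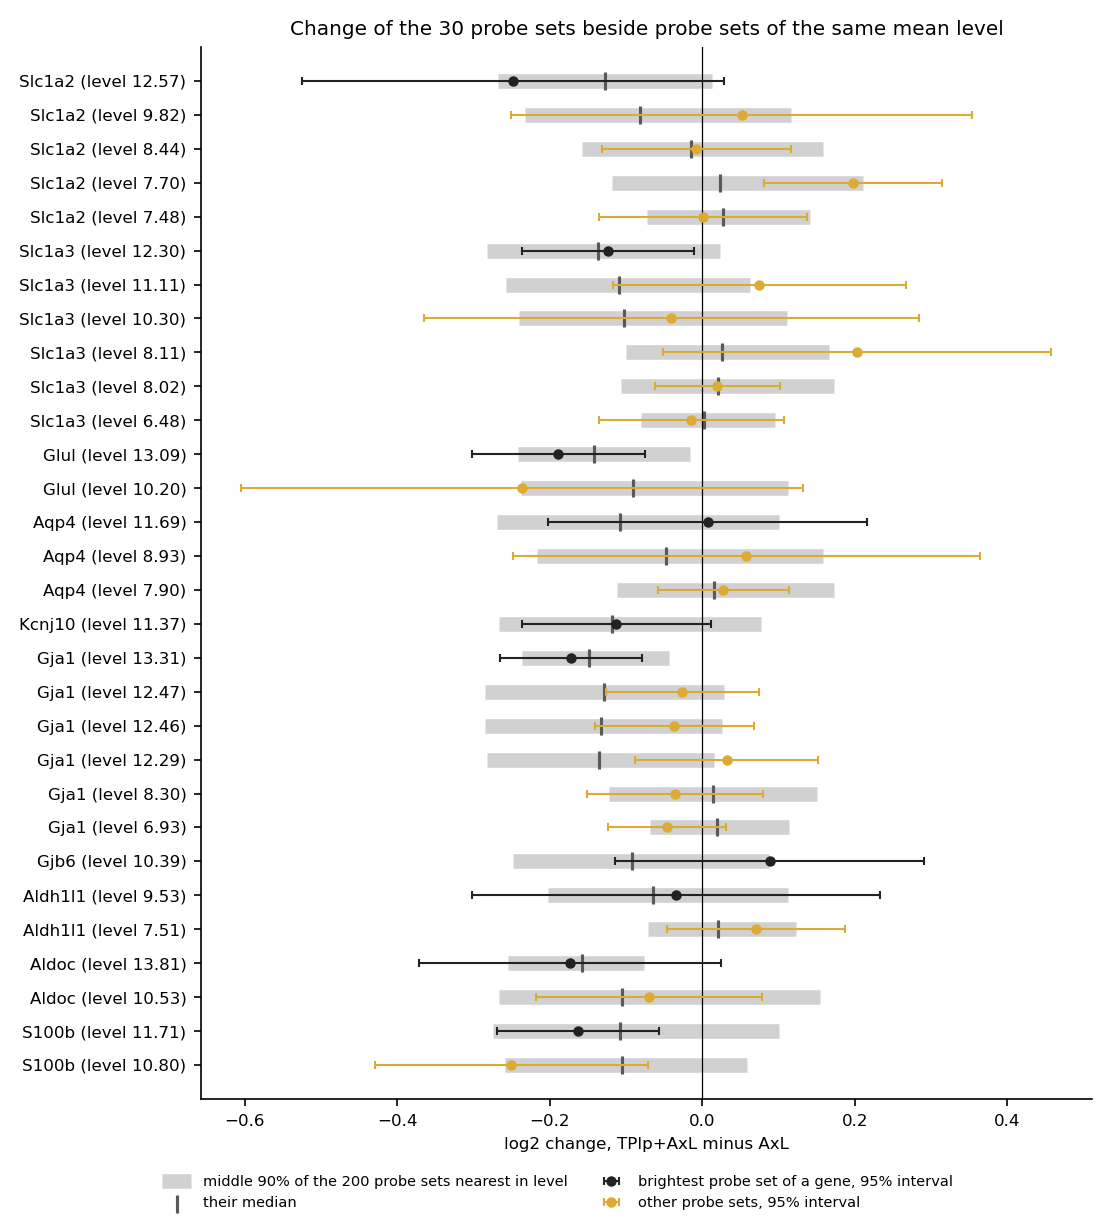
Log2 change (TPlp+AxL minus AxL) of the 30 member probe sets with 95% intervals, black for the brightest of each gene and yellow for the others, beside the median (tick) and middle 90% (grey bar) of the 200 probe sets nearest in mean level. The points of 26 probe sets lie within the grey bars, and those of Gja1 at levels of 12.29 to 12.47 lie to the right of their ticks.

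The mean deviation of the members from their 10-array mean was -0.01, -0.03, 0.09, 0.14 and 0.09 in AxL 1 to 5 and 0.11, -0.11, -0.15, -0.14 and 0.01 in TPlp+AxL 1 to 5. All AxL arrays except AxL 4 lay within the range of the TPlp+AxL arrays, so the groups overlapped. Probe sets of the same levels deviated by 0.02, 0.0024, 0.12, 0.09 and 0.04 in AxL 1 to 5 and by 0.05, -0.08, -0.08, -0.13 and -0.05 in TPlp+AxL 1 to 5. The members minus these ran from -0.03 to 0.05 in AxL and from -0.07 to 0.06 in TPlp+AxL.

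**Figure D4:**
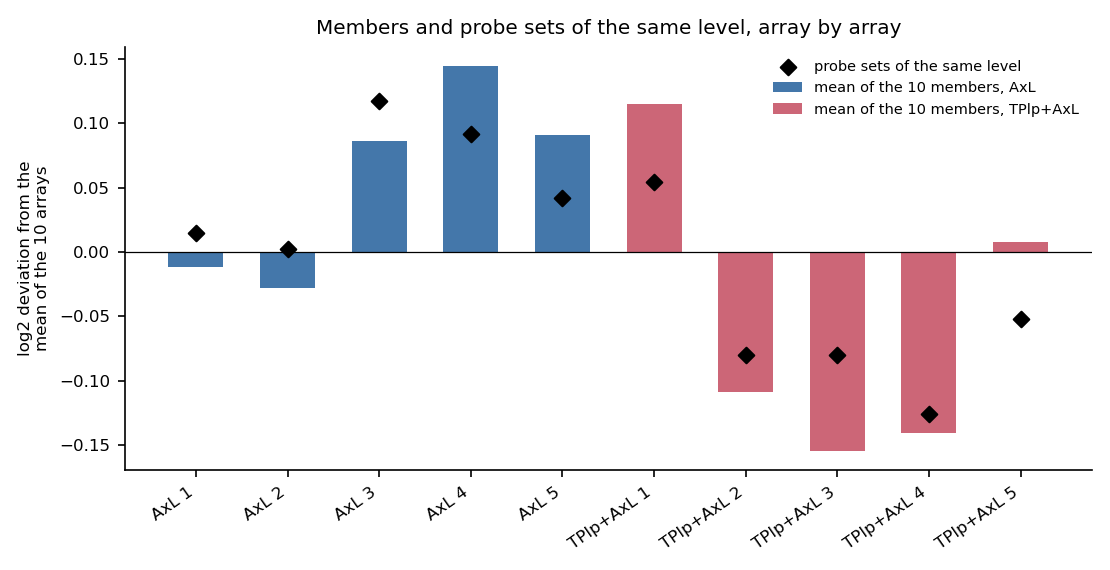
Mean log2 deviation of the 10 members from their mean over the 10 arrays (bars, AxL blue and TPlp+AxL red) and of the 200 probe sets nearest in level to each member (diamonds, the mean over members of their median). TPlp+AxL 1 is positive in both, like AxL 3 to AxL 5, and TPlp+AxL 2 to TPlp+AxL 4 are negative in both.

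The choroid plexus lies next to the hippocampus, and its genes (10 measured of a list of 12) were high in AxL 3, AxL 5 and TPlp+AxL 1, where Kcnj13 read 12.03, 10.52 and 10.51 against 7.61 to 7.93 on the other arrays. These arrays had positive member deviations, and so had AxL 4, where Kcnj13 read 7.78. With the mean of the choroid plexus list as a covariate the median change of the 10 members was -0.12, and without the 3 arrays it was -0.15. In both, 0 member probe sets passed the threshold in limma. With the covariate 0.637% of all probe sets passed. Without the 3 arrays only 1 of all 45037 probe sets passed. In the T cell list the groups did not overlap for 4 of 7 measured genes and overlapped for Cd3e, Cd4 and Cd8a. Of all probe sets, 3.59% had groups that did not overlap, 1.94% with TPlp+AxL higher. The mean deviation over the 7 genes ran from -0.30 to -0.20 in AxL and from 0.13 to 0.48 in TPlp+AxL.

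Within groups, deviations of the members over the 10 arrays had a median pairwise correlation of 0.44 over 45 pairs, highest for Slc1a2 with Aldoc (r = 0.86) and with Aqp4 (r = 0.84). Kcnj10 stood apart from the rest, with r = 0.0025 against the mean of the other 9. Pairs of other genes were not measured for comparison, and the member pairs were not repeated after quantile normalization. The genes most like the mean member profile, among 7654 genes with a level of at least 9, were Stk39, Pgrmc1, Fars2, Pcnp, Atrx and Mmd2, with r from 0.957 to 0.966. The points share the arrays, and the median r of all 7654 genes with that profile was 0.45. After quantile normalization the 6 genes had r from 0.449 to 0.752.

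Other genes of the same tasks were counted by their brightest probe sets, beside a median of -0.03 over all genes, of which 62.7% were negative. Counts at an unadjusted p under 0.05 stand beside 14.3% of all probe sets in limma, here and in the lists below. Counts past the threshold stand beside 0.646% of all probe sets higher and 0.189% lower. Among other uptake and ion transport genes of astrocytes, 0 of 19 passed in limma (6 at an unadjusted p under 0.05), with 15 negative and a median of -0.14. Slc38a3, which releases glutamine from astrocytes, had -0.26 (adjusted p = 0.0838), and Slco1c1, a thyroxine transporter shared with endothelium, had -0.56 (adjusted p = 0.114). A dimmer Slc38a3 probe set had -0.0012. Both genes passed without AxL 2 (adjusted p = 0.0494 and 0.0250) and with array weights (adjusted p = 0.0459 and 0.0458). In the rest of the glutamate and glutamine cycle, 0 of 13 passed (4 at an unadjusted p under 0.05), with a median of -0.15, led in p by Got2, a mitochondrial aminotransferase (-0.23, adjusted p = 0.152), and Slc17a7, the vesicular glutamate transporter of neurons (-0.39, adjusted p = 0.220). Other probe sets of Got2 had -0.19, 0.03 and 0.09.

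The complex that anchors Aqp4 and Kir4.1 at the endfeet gave 0 of 12 (6 at an unadjusted p under 0.05), with a median of -0.10. The laminin chain Lamb2 had -0.17 (adjusted p = 0.118) and utrophin (Utrn) -0.18 (adjusted p = 0.162), with 2 further Utrn probe sets at 0.03 and -0.01. Other connexins and pannexins gave 0 of 10 (1 at an unadjusted p under 0.05) and a median of -0.05, with Panx2 at -0.19 (adjusted p = 0.256) and Gjb1, a connexin of oligodendrocytes, at -0.12 (adjusted p = 0.371, other probe set -0.15). Metabolic and glycolytic genes gave 0 of 20 (7 at an unadjusted p under 0.05) and a median of -0.13, with lactate dehydrogenase B (Ldhb) at -0.20 (adjusted p = 0.123, other probe sets -0.07, -0.21 and -0.25) and pyruvate kinase (Pkm) at -0.34 (adjusted p = 0.145, and 0.0483 with array weights).

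Among astrocyte identity genes 2 of 25 measured fell, where 0.189% of all probe sets passed as lower. Of the 25, 24 were negative with a median of -0.19, and 13 had an unadjusted p under 0.05 in limma. Of the non-member probe sets at a level of 11 or more, 89.7% were negative and 1.68% passed as lower. Between 9 and 11, 77.3% were negative and 0.221% passed as lower. Those that fell were Apoe, the main lipid carrier made by astrocytes, with a log2 change of -0.31 (SE 0.06, adjusted p = 0.0315), and Gstm1, a glutathione transferase, with -0.27 (SE 0.05, adjusted p = 0.0346). For each of them the groups did not overlap, against 1.64% of all probe sets separated with TPlp+AxL lower. A second bright Gstm1 probe set fell, with -0.28 (adjusted p = 0.0394), and 2 dimmer ones had -0.0046 and 0.14. Both calls were lost after quantile normalization, with Apoe at -0.16 (adjusted p = 0.145) and Gstm1 at -0.13 (adjusted p = 0.372). Each was also lost on leaving out single arrays, Apoe with any of AxL 1, 2, 3 or 5 and TPlp+AxL 2, 3, 4 or 5, and Gstm1 with any of AxL 2, 3 or 5 and any TPlp+AxL array, where its adjusted p reached 0.105.

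Genes that astrocytes raise when they become reactive mostly had changes of the other sign. Of 20, 16 were positive and 4 negative, and 9 had an unadjusted p under 0.05 in limma. The median was 0.32 and the range -0.07 (Nes) to 1.24, with Serpina3n at 0.01. Which cells of the bulk tissue carried these changes was not tested. Socs3, the inhibitor of cytokine signalling that many cells induce, was the 1 that rose (1.24, SE 0.18, adjusted p = 0.0078, and 0.165 without AxL 3, AxL 5 and TPlp+AxL 1). Gfap had -0.02 (adjusted p = 0.918), with 0.11 after quantile or cyclic loess normalization, and its other probe sets had -0.11 and -0.16. Vim, the intermediate filament vimentin, had 0.35 (adjusted p = 0.228, and 0.0489 after quantile normalization), with other probe sets at 0.35 and 0.12. In the S100 family 4 of 9 had an unadjusted p under 0.05 in limma, and 2 rose, the neutrophil proteins S100a9 (1.18, adjusted p = 0.0161) and S100a8 (1.14, adjusted p = 0.0185). Both lost the call without TPlp+AxL 4 (adjusted p = 0.0599 and 0.0653), and S100a8 also without AxL 1 (0.0525). Without AxL 3, AxL 5 and TPlp+AxL 1 they had adjusted p of 0.131 and 0.130. The difference between the members and these lists was not tested.

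**Figure D5:**
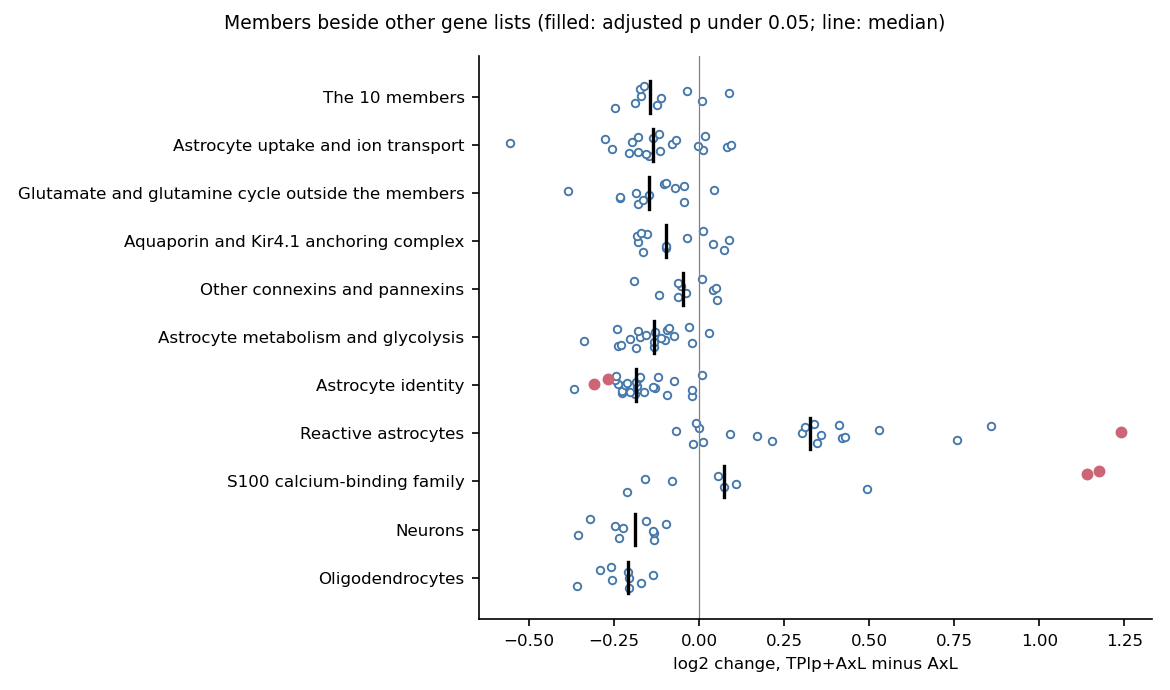
Log2 change (TPlp+AxL minus AxL) of the brightest probe set of each gene in the 10 members and in 10 other lists; filled points passed an adjusted p of 0.05 in limma, open points did not, and the black line is the list's median. The members lie between -0.25 and 0.09 with a median of -0.14, and 16 of the 20 reactive astrocyte genes lie above 0.

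Neuronal genes had a median of -0.19 with all 10 negative and 0 past the threshold in limma (6 at an unadjusted p under 0.05). Syp and Syt1, proteins of the synaptic vesicle, had -0.36 (adjusted p = 0.0663) and -0.24 (adjusted p = 0.117). Their dimmer probe sets had the opposite sign, 0.10 for Syp and 0.11, 0.09 and 0.14 for Syt1. Syp passed with array weights (adjusted p = 0.0181), with array medians subtracted (0.0404) and without AxL 4 (0.0188), and Syt1 with array weights (0.0431). Set beside neighbours of their own level, the median difference was -0.08 for neuronal and for identity genes, -0.14 for oligodendrocyte, -0.13 for endothelial and -0.20 for ependymal genes, -0.04 for the other uptake and transport genes and 0.41 for reactive genes, against -0.0047 for the 10 members. Of other cell types, 0 of 8 microglial genes passed (2 at an unadjusted p under 0.05, median -0.10), 0 of 8 endothelial genes (5, median -0.14), 0 of 11 genes of thalamus and habenula (0, median -0.04), 0 of 6 ependymal genes (1, median -0.20) and 0 of 7 regional hippocampal neuron genes (1, median -0.10), all in limma. The choroid plexus list had 0 of 10 (0, median -0.38). In the T cell list 5 of 7 had an unadjusted p under 0.05 in limma. There 3 rose, Ms4a4b, Cd3g and Cd3d, by 1.67, 0.87 and 0.63 on the log2 scale. A second Ms4a4b probe set, at a mean level of 6.39, had 0.0089 (adjusted p = 0.936). Cd3d lost its call without AxL 1, 3, 4 or 5 or TPlp+AxL 4, where its adjusted p reached 0.0977. Without AxL 3, AxL 5 and TPlp+AxL 1 all 3 lost it, with adjusted p of 0.130, 0.233 and 0.265.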

How the data were processed

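The authors deposited log2 expression values per probe set. RMA is named in the submitters' processing notes, and its software and version were not given in the sources used here. Values ran from 5.45 to 14.86. The 64 control probe sets were left out and 45037 were tested. Gene symbols came from the platform annotation, updated by Entrez identifier (34741 of 34945 probe sets with 1 symbol matched GRCm38.p6); 932 listed several genes and 9160 none. The groups were compared in limma (version 3.58.1, R 4.3.3) by lmFit and untrended eBayes. The p-values were adjusted by Benjamini-Hochberg across the table, and the threshold was an adjusted p of 0.05. The test was checked on simulated data that held no level trend and no correlation between probe sets. These features of the arrays were not covered by the check. "Rose" and "fell" are used for what passed. Each mouse is 1 array, and p-values measure the spread between these mice; the number of arrays limits the precision. The arrays correlated at 0.9862 to 0.9977 with each other. After centring each probe set within its group, same-numbered arrays correlated from -0.224 to 0.363, so numbers were not taken as pairs.

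The members and lists were chosen with earlier results of these data known. Named were all member probe sets, from each list up to 4 genes past the threshold or otherwise the 2 with the smallest p, Gfap and Vim, and the 6 genes most correlated with the members; thalamus, ependyma, microglia, endothelium and hippocampal neuron lists served as checks. Alternatives were the variance model, a filter on dim probe sets, 3 normalizations, array weights, a replicate block, choroid plexus and thalamus covariates, arrays left out, other sizes of the level-matched set, 1 value per gene and an adjusted p under 0.10.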

Additional observations from a re-analysis of the deposited data

Results flagged for a closer look

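Among 62 groups of 5 values (30 member probe sets and their mean deviation, in AxL and in TPlp+AxL), 4 held an array set apart from the other 4, where chance flags about 1 in 20; the gap to the nearest array is given as a share of the group's range. TPlp+AxL 1 was high for the brightest Aqp4 probe set (11.99 against 11.68, gap 0.746 of the range) and for the second Gja1 probe set (12.59 against 12.44, gap 0.831). TPlp+AxL 2 was low for the dimmest Aqp4 probe set (7.858 against 7.925, gap 0.857). AxL 3 was low for the dimmer Aldh1l1 probe set (7.283 against 7.481, gap 0.733).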

How the results depend on the processing

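The count of member probe sets past the threshold stayed 0 under every alternative except array weights (1) and leaving out single arrays (0 to 2). Of 298 member changes under the other settings 268 kept direction and side of the threshold, and of 300 with single arrays left out 271 did; the cause of the rest was not tested. All probe sets past the threshold numbered 753 with array weights, 241 with the replicate block, 1 without AxL 3, AxL 5 and TPlp+AxL 1 (7 arrays), 757 at an adjusted p under 0.10, and 185 to 460 with single arrays left out. The replicate block changed no member call. It ended the calls of Apoe (adjusted p = 0.0946), S100a8 (0.0771), S100a9 (0.0752) and Cd3d (0.107). The median change of the members was -0.0015 after quantile normalization, -0.0155 after cyclic loess and -0.0246 with the mean of all probe sets of a gene, and -0.18 to -0.12 with single arrays left out; relative to level neighbours it was -0.03 to 0.0073. Of 76 other astrocyte genes, 2 passed in the reported setting, 0 with a trended variance, quantile or cyclic loess normalization, the thalamus covariate or without AxL 3, AxL 5 and TPlp+AxL 1, 6 with array weights, 1 with the replicate block, 1 with the choroid plexus covariate, 4 at an adjusted p under 0.10, and 0 to 2 with single arrays left out. Changes of opposite sign, none past the threshold, were these. With array medians subtracted, the values were Slc1a2 (level 7.48) -0.027, Slc1a3 (level 8.02) -0.0084, Aqp4 (level 11.69) -0.021, Aqp4 (level 7.90) -0.00039. With quantile normalization repeated, the values were Slc1a2 (level 7.48) -0.032, Slc1a3 (level 12.30) 0.017, Slc1a3 (level 10.30) 0.031, Slc1a3 (level 8.02) -0.0061, Gja1 (level 12.47) 0.11, Gja1 (level 12.46) 0.10, Aldh1l1 (level 9.53) 0.018, Aldoc (level 10.53) 0.00999, Gfap 0.11. With cyclic loess normalization, the values were Slc1a2 (level 7.48) -0.0298, Slc1a3 (level 10.30) 0.043, Gja1 (level 12.47) 0.10, Gja1 (level 12.46) 0.089, Aldh1l1 (level 9.53) 0.027, Aldoc (level 10.53) 0.018, Gfap 0.11. With array weights, the values were Slc1a2 (level 7.48) -0.00098, Aldh1l1 (level 9.53) 0.0051, Gfap 0.011. With the choroid plexus covariate, the values were Gfap 0.015. With the thalamus covariate, the values were Slc1a2 (level 9.82) -0.11, Slc1a3 (level 11.11) -0.0201, Aqp4 (level 11.69) -0.069, Aqp4 (level 8.93) -0.086, Gja1 (level 12.29) -0.014. Without AxL 3, AxL 5 and TPlp+AxL 1, the values were Slc1a2 (level 9.82) -0.042, Slc1a3 (level 11.11) -0.016, Aqp4 (level 11.69) -0.048, Gja1 (level 12.29) -0.036. With single arrays left out the ranges across 0 were Slc1a2 (level 9.82) -0.059 to 0.14, Slc1a2 (level 8.44) -0.036 to 0.021, Slc1a2 (level 7.48) -0.051 to 0.029, Slc1a3 (level 10.30) -0.11 to 0.085, Slc1a3 (level 6.48) -0.055 to 0.0095, Aqp4 (level 11.69) -0.067 to 0.0699, Aqp4 (level 8.93) -0.066 to 0.15, Gja1 (level 12.29) -0.012 to 0.057, Gja1 (level 8.30) -0.069 to 0.0062, Aldh1l1 (level 9.53) -0.10 to 0.0704, Gfap -0.062 to 0.017. The number of arrays (5 per group) limits the precision.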
